A study of Saccharomyces cerevisiae with 24 samples.

Results

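Haploid budding yeast of strain crz1 that had grown for 12 h in 200 mM CaCl2 were compared with the same strain sampled untreated at 0 h. The members were chosen by genotype, treatment and time as labelled, which gave 6 of the 24 polyA RNA libraries of the series, 3 for crz1 at 12 h and 3 for crz1 at 0 h. Both groups were MATa cells of the BY4741 background and carried his3delta1, ura3delta0, leu2delta0, lys2delta0 and crz1delta::LEU2, and a HYG-TEFp-GFP(Y66F) cassette on chromosome VI. The medium was synthetic with ammonium chloride as the nitrogen source, and treated cultures were diluted at intervals of 12 h to stay in logarithmic growth. Used beside them were crz1 after 48 h and, for summed levels only, 72 h in CaCl2, and the crz1 cnb1 strain, which also carried cnb1delta::KanMx, at 12 h and 0 h (3 libraries each). No untreated library was taken at 12 h, so the effect of CaCl2 and the effect of 12 h in culture with a dilution cannot be told apart. The labels do not say whether the 3 libraries of a group came from separate cultures or clones, so the p-values measure the spread between these libraries only.

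Calcium entering a yeast cell binds calmodulin, which switches on calcineurin, a protein phosphatase with a catalytic subunit (Cna1 or Cna2) and a regulatory subunit (Cnb1). Calcineurin then removes phosphates from the transcription factor Crz1, which moves into the nucleus and turns on genes for ion transport, wall building and calcium storage. In a crz1 strain that output is missing while calcineurin itself is intact, so the comparison covers an early interval in CaCl2 of cells that keep the phosphatase without its main transcription factor. The series was built to find the changes that need calcineurin but not Crz1.

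The libraries carried 21582317 to 21838450 counts each, enough to test 6089 genes. CRZ1 had 0 to 2 counts per library and CNB1 had 1581 to 2542, as the genotype requires, and URA3 and LYS2 had 0 counts in each of the 6 libraries. LEU2, the marker of the crz1 deletion, had 10333 to 22645 counts, and HIS3, labelled his3delta1, had 951 to 1895. All 7 MATa marker genes were detected, while the alpha factor genes MF(ALPHA)1 and MF(ALPHA)2 stayed at or under 32 counts in each library. The other 2 MATalpha markers were above that, STE3 with 134 to 298 counts and SAG1 with 389 to 727. On the first principal component of the libraries, crz1 lay at -17.1, -5.24 and 5.65 at 12 h and at 21.1, 38.0 and 39.9 at 0 h, so the groups did not overlap but spread widely within themselves. Levels below are CPM, counts per 1000000 scaled by the TMM method, given in the order of libraries (replicates) 1, 2 and 3. Changes are log2 ratios of 12 h over 0 h with their standard error after ±, and a gene is called when its adjusted p in edgeR's quasi-likelihood test lies below 0.05. Coordinates are those of build R64.

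Of the 6089 genes, 1072 (17.6%) were called higher at 12 h and 878 (14.4%) lower, and 305 (5.01%) and 152 (2.5%) of these had changed at least 2-fold. The counts of list members below are to be set against these 17.6% and 14.4%. Libraries of the times did not overlap for 1393 genes (22.9%) higher at 12 h and 1367 (22.5%) lower. A lack of overlap, given below for single genes, was thus common. On the authors' TPM values, as log2(TPM + 1), the split was 541 higher and 1307 lower, and the median change of all genes lay at -0.16 there against -0.0045 on the TMM scale. The 15 largest rises included genes that capture iron at the cell wall, FIT1, FIT3 and FIT2, and the iron reductase genes FRE2 and FRE5. The 15 largest falls included the mating genes FUS1, AGA2, ASG7, MFA1, AGA1 and BAR1, and CYC1, which encodes cytochrome c. Outside these themes, HBN1, a predicted nitroreductase gene, had 173, 161 and 131 CPM at 12 h and 6.98, 5.33 and 4.13 CPM at 0 h (4.82 ± 0.35, adjusted p = 1.35e-08). HPF1, which encodes a wall mannoprotein, had 627, 795 and 876 CPM at 12 h against 47.4, 36.4 and 31.6 CPM at 0 h (4.32 ± 0.41, adjusted p = 3.60e-07). Every 12 h library of both genes lay many times above every 0 h library. CSS1, a close relative of HPF1 with which it can share reads, also rose (3.1 ± 0.41, adjusted p = 1.06e-05), so that both values are uncertain to that extent. RSB1, a gene of lipid movement across the plasma membrane, was the least secure of the large falls (-3.17 ± 1.09, adjusted p = 0.0334). Its call was lost with any 1 of 5 libraries left out, at adjusted p = 0.0531 to 0.109.

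**Figure D1:**
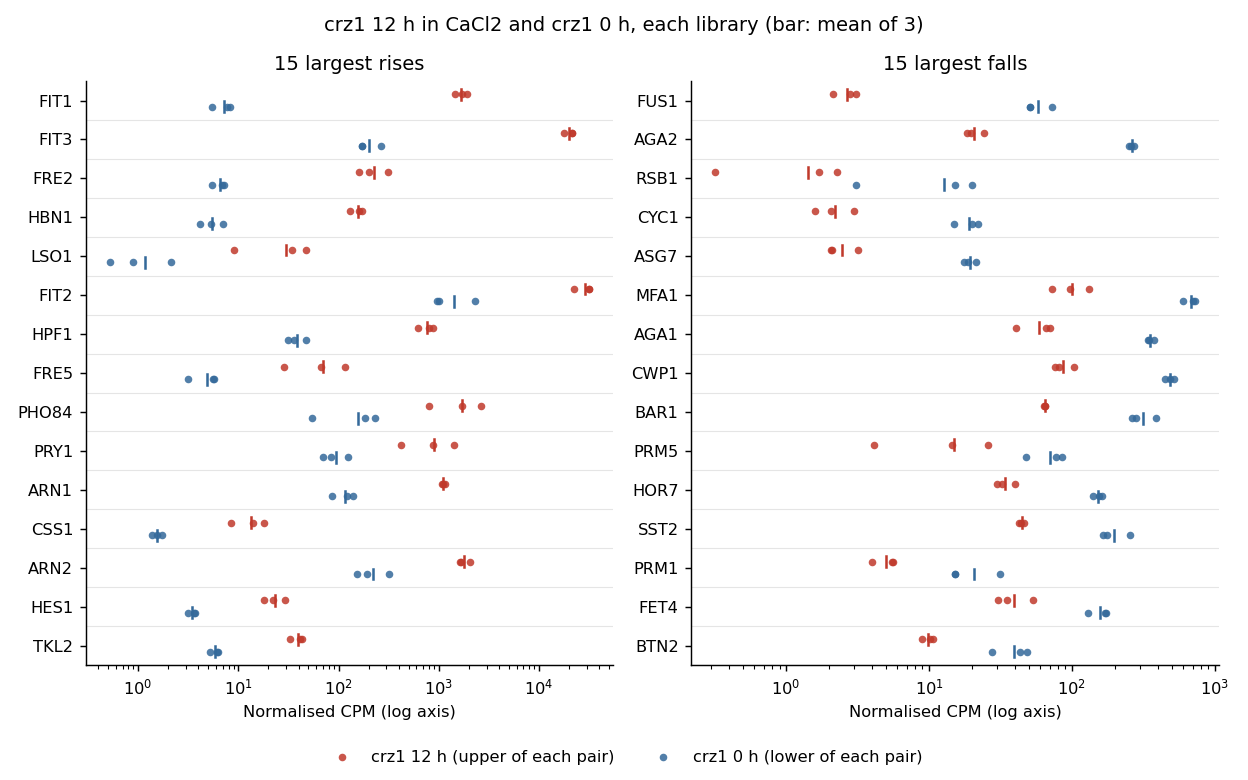
Normalised CPM of each library on a log axis for the 15 largest rises and the 15 largest falls, with the crz1 12 h libraries above and the crz1 0 h libraries below within each gene. For these 30 genes the libraries of the groups do not overlap, which the naming rule required.

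The siderophore genes had the highest median change of the 54 lists examined, and other iron uptake genes rose with them. Yeast obtains iron by 2 routes. In one, the mannoproteins Fit1, Fit2 and Fit3 hold iron-bearing siderophores in the wall and the Arn transporters carry them in. In the other, surface reductases of the Fre family turn ferric into ferrous iron, and the oxidase Fet3 and the permease Ftr1 import it. When iron runs short the transcription factor Aft1, joined by Aft2, turns these genes on. All 7 members of the siderophore list were called higher, where 17.6% of all genes were, and their median change was 3.26. FIT1 (YDR534C, chromosome IV, 1503314 to 1504900) had 1898, 1698 and 1442 CPM at 12 h and 8.29, 7.67 and 5.44 CPM at 0 h (7.88 ± 0.81, adjusted p = 1.87e-06). FIT3 (YOR383C, chromosome XV, 1060441 to 1061055) had 17728, 21289 and 21441 CPM at 12 h and 173, 264 and 172 CPM at 0 h (6.63 ± 0.53, adjusted p = 4.19e-08). FIT2 (YOR382W, chromosome XV, 1059531 to 1059992) had 22332, 31939.7 and 31911 CPM at 12 h and 1005, 2295 and 968 CPM at 0 h (4.34 ± 0.37, adjusted p = 5.86e-08). The groups lay far apart for all 3 genes. The summed level of the 7 siderophore genes was 47577, 59236 and 58609 CPM at 12 h, against 2239, 3729 and 1907 CPM at 0 h. That is a 21.0-fold difference of means.

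The promoters of FIT1, FIT3 and LSO1 are shown because these genes had the largest rises among the called iron genes whose promoter holds the core of the site read by Aft1, GCACCC or its complement GGGTGC. Each line gives 300 bases of RefSeq sequence, the 250 before the annotated start of the gene and 50 after it, 5′ to 3′ on the strand of the gene, with the core in capitals.
FIT1 chrIV:1504851-1505150 (minus strand): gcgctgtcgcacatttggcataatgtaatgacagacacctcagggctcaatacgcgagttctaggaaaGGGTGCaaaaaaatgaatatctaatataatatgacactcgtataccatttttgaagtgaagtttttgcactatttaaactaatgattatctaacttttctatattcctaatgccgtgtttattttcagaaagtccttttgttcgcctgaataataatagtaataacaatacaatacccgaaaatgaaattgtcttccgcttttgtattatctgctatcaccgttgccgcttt
FIT3 chrXV:1061006-1061305 (minus strand): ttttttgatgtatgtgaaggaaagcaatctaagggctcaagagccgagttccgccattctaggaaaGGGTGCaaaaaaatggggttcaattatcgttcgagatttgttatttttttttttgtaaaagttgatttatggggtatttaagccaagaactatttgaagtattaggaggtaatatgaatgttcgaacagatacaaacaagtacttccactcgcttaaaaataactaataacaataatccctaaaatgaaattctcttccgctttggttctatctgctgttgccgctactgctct
LSO1 chrX:448709-449008 (minus strand): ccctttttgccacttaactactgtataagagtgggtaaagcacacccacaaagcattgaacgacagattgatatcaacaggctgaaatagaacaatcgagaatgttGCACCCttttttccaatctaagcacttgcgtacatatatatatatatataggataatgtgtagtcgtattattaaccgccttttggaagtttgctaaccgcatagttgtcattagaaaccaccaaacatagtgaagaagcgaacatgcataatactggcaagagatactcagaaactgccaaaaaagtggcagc
The core began 182 bases before the start of FIT1, 184 bases before that of FIT3 and 144 bases before that of LSO1. FIT1 and FIT3 also shared an unbroken run of 25 bases around it, ttctaggaaaGGGTGCaaaaaaatg. Of 22 iron list members called higher, 13 held the core in this window, as did 4.29% of 5693 promoters of the genome. Over all 32 members, called or not, 17 held it, among them 1 of the 3 called lower. These are matches of letters and not measured binding.

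The siderophore transporter genes moved less far than the FIT genes. ARN1, for an importer of ferrichromes, had 1163, 1069 and 1102 CPM at 12 h and 123, 138 and 86.2 CPM at 0 h (3.26 ± 0.19, adjusted p = 3.19e-10). ARN2, whose product carries triacetylfusarinine, had 2066, 1649 and 1685 CPM at 12 h and 192, 316 and 154 CPM at 0 h (3.03 ± 0.25, adjusted p = 4.19e-08). SIT1, for the ferrioxamine importer, had 1313, 844 and 500.1 CPM at 12 h and 337, 303 and 236 CPM at 0 h (1.6 ± 0.29, adjusted p = 0.0003). ENB1, for the enterobactin importer, had 1077, 748 and 527 CPM at 12 h and 402, 404 and 285 CPM at 0 h (1.11 ± 0.26, adjusted p = 0.00241). No treated library of these 4 genes overlapped an untreated one. ARN1 and ARN2 were even across the treated libraries, whereas SIT1 and ENB1 were lowest in replicate 3 and highest in replicate 1.

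In the reductive route 8 of 13 members were called higher and 2 lower, with a median of 1.02, and on the TPM scale 5 were called higher. The median was 0.67 without 12 h library 1. FRE2, for a ferric and cupric reductase, had 311, 204 and 159 CPM at 12 h and 6.94, 7.17 and 5.44 CPM at 0 h (5.11 ± 0.48, adjusted p = 4.80e-07). FRE3, a reductase gene for siderophore iron, had 185, 135 and 91.7 CPM at 12 h and 29.4, 35.9 and 27.2 CPM at 0 h (2.15 ± 0.22, adjusted p = 3.94e-07). FRE5 had 116, 66.9 and 28.8 CPM at 12 h and 5.63, 5.7 and 3.13 CPM at 0 h (3.87 ± 0.49, adjusted p = 1.19e-05). The groups were apart for each of the 3. FRE3 (YOR381W, chromosome XV, 1055545 to 1057680), FIT2, FIT3 and FRE5 (YOR384W, chromosome XV, 1061564 to 1063648) follow one another on chromosome XV, so 4 of the risen iron genes are neighbours. The permease gene FTR1 had 1703, 1325 and 697 CPM at 12 h and 508, 311 and 274 CPM at 0 h (1.77 ± 0.33, adjusted p = 0.000434), and its partner FET3 had 3370.0, 2552 and 1475 CPM at 12 h and 1407, 1148 and 925 CPM at 0 h (1.09 ± 0.28, adjusted p = 0.00569). The lowest treated library of both was replicate 3, which lay only a little above the highest untreated one. FET4, for the low-affinity iron transporter of the plasma membrane, went the other way, with 53, 35.1 and 30.2 CPM at 12 h and 130.2, 171 and 173 CPM at 0 h (-2.0 ± 0.33, adjusted p = 0.000133). On log2(TPM + 1) the change of FRE2 was 4.43 and that of FRE5 was 2.99.

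Genes that spare iron or handle it inside the cell split. Of 12 members 7 were called higher and 1 lower. ISU1 and ISU2, which encode the scaffolds on which iron-sulfur clusters are built, rose (1.01 ± 0.14, adjusted p = 1.14e-05 for ISU1, and 1.27 ± 0.31, adjusted p = 0.00379 for ISU2). FET5, for an oxidase of the vacuole membrane, rose (1.11 ± 0.21, adjusted p = 0.000382), as did COT1, for a vacuolar metal transporter (1.54 ± 0.23, adjusted p = 2.79e-05). LSO1, a small protein gene of iron shortage, had 47.2, 34.2 and 9.04 CPM at 12 h and 2.12, 0.881 and 0.522 CPM at 0 h (4.68 ± 1.28, adjusted p = 0.00982). LSO1 changed by 5.41 without 0 h library 1 and by 4.02 on log2(TPM + 1). The calls of VHT1 and FTH1 were lost in a fit of these libraries alone, on both TPM scales and with some libraries left out, with an adjusted p of up to 0.238 for VHT1 and up to 0.204 for FTH1. CTH1, one of a pair of genes whose proteins destroy mRNAs of iron-using enzymes, fell (-0.81 ± 0.16, adjusted p = 0.000463). Its partner TIS11, also called CTH2, had 135, 84.6 and 21.7 CPM at 12 h and 74.7, 61.1 and 66.7 CPM at 0 h, so the groups overlapped and no change was called (0.26 ± 0.51, adjusted p = 0.741). HMX1, the heme oxygenase gene that recovers iron from heme, had 100.1, 64.7 and 14.2 CPM at 12 h and 10.9, 23.4 and 19.1 CPM at 0 h (1.75 ± 0.66, adjusted p = 0.0521). For TIS11 and HMX1 the 12 h replicate 3 was the low one, and without it HMX1 was called at an adjusted p of 0.0153. Of 14 enzymes that use or store iron, 3 were called higher and 3 lower, 21.4% each, where 17.6% and 14.4% of all genes were. There were 5 higher and 1 lower without 12 h library 1, and 1 lower without 12 h library 2. With replicates as a block within strain 5 were lower. CYC1 had 1.6, 2.05 and 2.99 CPM at 12 h and 21.9, 14.8 and 20.1 CPM at 0 h (-3.1 ± 0.63, adjusted p = 0.00101), with the groups far apart.

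Genes of the mating pathway fell together. MATa cells make the a-factor pheromone, a protease that cleaves alpha factor, the receptor for it and an agglutinin. Binding of alpha factor starts a kinase cascade that ends at the transcription factor Ste12, and a low basal flow through the cascade keeps some of its targets on without pheromone. All 7 a-specific genes were called lower, where 14.4% of all genes were, with a median of -2.27. Their summed level was 966, 1267 and 1731 CPM at 12 h, against 3745, 3597 and 4088 CPM at 0 h. AGA2, the binding subunit of a-agglutinin, had 18.3, 19.7 and 24.4 CPM at 12 h and 273, 261 and 249 CPM at 0 h (-3.65 ± 0.22, adjusted p = 3.19e-10). BAR1, the alpha factor protease gene, had 64.1, 64.4 and 64.9 CPM at 12 h and 389, 264 and 282 CPM at 0 h (-2.27 ± 0.2, adjusted p = 5.94e-08). The treated libraries of AGA2 and BAR1 were nearly level, and no library of the groups came close to overlapping. MFA1 and MFA2 both encode a-factor. MFA1 had 72, 96.1 and 133 CPM at 12 h and 600.2, 706 and 726 CPM at 0 h (-2.76 ± 0.41, adjusted p = 5.49e-05), and MFA2 had 321, 519 and 769 CPM at 12 h and 1112, 1181 and 1602 CPM at 0 h (-1.28 ± 0.34, adjusted p = 0.0066). STE2, the alpha factor receptor, had 362, 447 and 609.9 CPM at 12 h and 1109, 985 and 1032 CPM at 0 h (-1.14 ± 0.21, adjusted p = 0.000272). STE6, the a-factor exporter, changed least (-0.69 ± 0.15, adjusted p = 0.00136), and ASG7 fell by 2.97 on the log2 scale. In bulk RNA, fewer cells with the transcript and less of it per cell cannot be told apart.

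The wider pheromone list had 20 of 30 members called lower and 2 higher, with a median of -0.68. FUS1, for a membrane protein of cell fusion, had 2.15, 3.09 and 2.78 CPM at 12 h and 72.6, 51.3 and 50.5 CPM at 0 h (-4.44 ± 0.4, adjusted p = 1.51e-07). FIG1, which acts in calcium uptake during mating, had 0 counts in each of the 3 treated libraries, against 168, 142 and 126 counts in the untreated ones. Against a limit of 3 counts per library it was at least 41.7-fold lower. PRM6, a pheromone-regulated potassium transporter gene, had 0, 3 and 0 counts at 12 h and 144, 83 and 45 counts at 0 h, and PRM2 fell to 0.548, 0.349 and 0.263 CPM at 12 h, against 6.18, 4.91 and 4.09 CPM at 0 h. All the untreated libraries of these genes stood above all the treated ones. SST2, which switches the G protein of the pathway off again, had 46.1, 42.9 and 44.3 CPM at 12 h and 255, 175 and 165 CPM at 0 h (-2.16 ± 0.19, adjusted p = 8.26e-08). AGA1, the anchor subunit of a-agglutinin, fell (-2.59 ± 0.28, adjusted p = 1.58e-06), as did PRM1, for a fusion protein (-2.04 ± 0.28, adjusted p = 1.45e-05), and PRM5 (-2.24 ± 0.5, adjusted p = 0.00215). PRM5 changed by -2.93 without 12 h library 3, and FUS1 by -3.81 on log2(TPM + 1). The 2 exceptions that rose were STE20, a kinase at the head of the cascade (0.76 ± 0.2, adjusted p = 0.00608), and PRM4 (0.69 ± 0.2, adjusted p = 0.00937), neither of them called on the TPM scale. Among the alpha-specific genes, STE3 had 7.9, 7.19 and 7.04 CPM at 12 h and 8.46, 12.5 and 7.61 CPM at 0 h with no call (-0.37 ± 0.37, adjusted p = 0.473), so the a-specific fall was not accompanied by a called rise of the alpha receptor gene. SAG1, for alpha-agglutinin, was called higher (0.72 ± 0.21, adjusted p = 0.0105), and that call was lost without 12 h library 3 (adjusted p = 0.062) or 0 h library 1 (adjusted p = 0.0529). Both alpha factor genes were called lower, at no more than 6 counts in any treated library, and MF(ALPHA)1 lost its call in a fit of these libraries alone (adjusted p = 0.0504) and without replicate 2 of either time (0.0856 without that of 12 h and 0.102 without that of 0 h).

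The promoters of FUS1 and PRM6 are shown because they had the largest falls among called mating genes whose window holds the pheromone element read by Ste12, TGAAACA, searched on both strands and marked in capitals.
FUS1 chrIII:71553-71852 (plus strand): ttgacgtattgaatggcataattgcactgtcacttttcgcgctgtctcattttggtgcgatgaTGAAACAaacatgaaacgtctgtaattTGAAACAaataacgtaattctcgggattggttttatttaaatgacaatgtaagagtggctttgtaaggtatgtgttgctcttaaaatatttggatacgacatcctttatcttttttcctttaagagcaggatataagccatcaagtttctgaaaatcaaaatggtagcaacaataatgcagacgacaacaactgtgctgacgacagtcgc
PRM6 chrXIII:181026-181325 (minus strand): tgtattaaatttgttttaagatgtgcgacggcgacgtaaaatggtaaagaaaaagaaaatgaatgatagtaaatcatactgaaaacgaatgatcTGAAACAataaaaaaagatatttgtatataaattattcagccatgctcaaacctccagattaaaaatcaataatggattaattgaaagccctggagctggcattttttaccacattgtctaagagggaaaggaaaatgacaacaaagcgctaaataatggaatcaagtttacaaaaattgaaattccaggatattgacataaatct
The FUS1 window held 2 copies, which began 187 and 160 bases before the annotated start, and the PRM6 window held 1, at 156 bases before it. Of the 27 a-specific and pheromone genes called lower, 18 held the element, as did 7.43% of 5693 promoters. Over all 37 listed genes, called or not, 21 held it. Neither of the 2 pheromone genes called higher held it.

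The nuclear genes for the mitochondrial ribosome fell by a small and even amount. This ribosome translates the few respiratory subunits that mitochondrial DNA encodes, and its proteins are made in the cytosol and imported. Of 54 members 48 were called lower and 1 higher, with a median of -0.66, and their summed level was 2061, 2073 and 1889 CPM at 12 h, against 3144, 3092 and 3101 CPM at 0 h. No treated sum came near an untreated one. RSM28 had 45.8, 42.2 and 41 CPM at 12 h and 90.7, 87.8 and 82.5 CPM at 0 h (-1.02 ± 0.1, adjusted p = 3.60e-07). MRPL13 had 73.9, 76.6 and 65.8 CPM at 12 h and 148, 144 and 147 CPM at 0 h (-1.02 ± 0.11, adjusted p = 7.30e-07). MRPS17 had 30.9, 27.9 and 22.2 CPM at 12 h and 62.1, 63.4 and 59.8 CPM at 0 h (-1.19 ± 0.14, adjusted p = 2.96e-06), and MRPS9 had 88.8, 90.6 and 88.7 CPM at 12 h and 148, 158 and 166 CPM at 0 h (-0.81 ± 0.1, adjusted p = 5.06e-06). Replicates of these 4 genes agreed closely within a group. The one exception was MRPL4, which rose (0.61 ± 0.19, adjusted p = 0.0142). With any 1 library left out 44 to 48 members were called lower.

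The fall extended to proteins of the space between the mitochondrial membranes. Of 18 members of that list 10 were called lower and 2 higher, with a median of -0.66. MIA40, the oxidoreductase that folds incoming proteins there, had 91.8, 99.9 and 101 CPM at 12 h and 206, 237 and 217 CPM at 0 h (-1.17 ± 0.15, adjusted p = 6.93e-06). COX17, a copper carrier for cytochrome c oxidase, had 20.8, 18.6 and 15.7 CPM at 12 h and 60.7, 47 and 46 CPM at 0 h (-1.48 ± 0.21, adjusted p = 1.95e-05). The assembly factor genes COA4 (-1.35 ± 0.2, adjusted p = 2.84e-05) and PET191 (-1.13 ± 0.18, adjusted p = 8.28e-05) fell as well. All these genes were separate between the groups. COX19 (0.66 ± 0.17, adjusted p = 0.00514) and CMC4 (0.85 ± 0.19, adjusted p = 0.0014) were the 2 that rose. Of 36 respiratory chain subunits and assembly genes, 9 were called lower and 2 higher, with a median of -0.46. The 2 that rose were ATP1 (0.68 ± 0.16, adjusted p = 0.00221) and ATP2 (0.58 ± 0.12, adjusted p = 0.00102), the alpha and beta subunits of the ATP synthase, of which ATP1 lost its call on the TPM scale (adjusted p = 0.0612). QCR2, a core subunit of complex III, fell (-0.63 ± 0.15, adjusted p = 0.00299). The number lower fell to 4 without 12 h library 1 or 2 and to 5 without 0 h library 3, and was 23 on log2(TPM + 1).

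**Figure D2:**
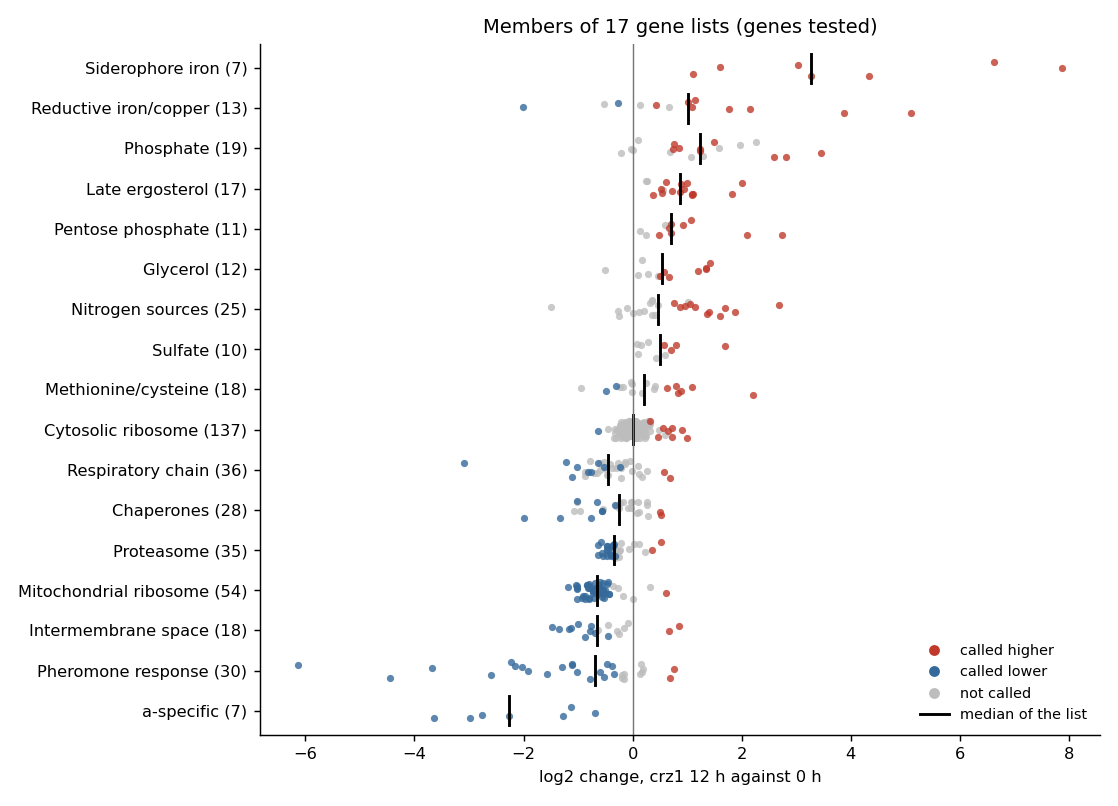
Log2 change of crz1 at 12 h over 0 h for each tested member of 17 gene lists, 1 row of points per list, with the list's median marked. The siderophore list lies wholly above 0 with a median of 3.26, the a-specific list wholly below it with a median of -2.27, and the mitochondrial ribosome forms a narrow band about its median of -0.66, while FIG1 at -10.08 is off the axis and not drawn.

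Most proteasome genes were lower as well. The proteasome degrades ubiquitin-tagged proteins, and the transcription factor Rpn4 keeps its subunits at a common level. Of 35 listed genes, the subunits with RPN4 and UMP1, 19 were called lower and 2 higher, with a median of -0.35. RPT3, an ATPase of the base, had 261, 218 and 196 CPM at 12 h and 396, 329 and 323 CPM at 0 h (-0.63 ± 0.12, adjusted p = 0.000328). RPN11, the deubiquitinase of the lid, had 144, 127 and 122 CPM at 12 h and 195, 188 and 190.0 CPM at 0 h (-0.54 ± 0.11, adjusted p = 0.000586). RPN3 (-0.48 ± 0.096, adjusted p = 0.000714) and PRE3, for a catalytic subunit of the core (-0.42 ± 0.092, adjusted p = 0.00146), fell by similar amounts. The treated libraries lay below the untreated ones in all 4. RPN10 (0.52 ± 0.15, adjusted p = 0.00863) and PUP1 (0.35 ± 0.096, adjusted p = 0.00801) were called higher, though not on the TPM scale, and RPN4 itself was not called (0.12 ± 0.14, adjusted p = 0.566). The count of members lower was 10 without 12 h library 3 and 12 without 0 h library 1.

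The RPT3 and RPT2 promoters are shown as the called proteasome genes of largest fold that hold GGTGGCA, the first 7 bases of the element read by Rpn4, which is in capitals here.
RPT3 chrIV:1261431-1261730 (plus strand): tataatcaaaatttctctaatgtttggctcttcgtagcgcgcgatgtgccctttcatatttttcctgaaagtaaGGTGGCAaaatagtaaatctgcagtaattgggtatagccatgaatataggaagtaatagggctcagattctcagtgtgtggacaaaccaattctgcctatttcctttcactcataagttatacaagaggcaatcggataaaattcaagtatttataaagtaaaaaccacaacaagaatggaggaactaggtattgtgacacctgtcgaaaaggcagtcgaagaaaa
RPT2 chrIV:437797-438096 (plus strand): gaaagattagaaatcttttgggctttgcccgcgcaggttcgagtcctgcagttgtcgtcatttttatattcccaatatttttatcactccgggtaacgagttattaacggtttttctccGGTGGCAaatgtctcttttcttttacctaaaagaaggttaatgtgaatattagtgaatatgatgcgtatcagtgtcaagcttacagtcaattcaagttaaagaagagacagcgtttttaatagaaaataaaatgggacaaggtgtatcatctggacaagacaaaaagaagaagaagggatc
The string began 176 bases before the start of RPT3 and 131 bases before that of RPT2. It was in the windows of 27 of the 35 listed genes and of 16 of the 19 called lower, against 2.93% of 5693 promoters. Most of the listed genes thus hold it, whether called or not.

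Of 28 chaperone genes 8 (28.6%) were called lower and 2 (7.14%) higher, where 14.4% and 17.6% of all genes were, and 18 were not called. None was higher on the TPM scale or without 12 h library 2, and the summed level of the list was 15295, 16241 and 17310.0 CPM at 12 h, against 15933, 15792 and 15359 CPM at 0 h. BTN2, for a factor that gathers misfolded proteins, had 10.6, 10.1 and 8.98 CPM at 12 h and 27.7, 43 and 48.1 CPM at 0 h (-2.0 ± 0.28, adjusted p = 2.23e-05). HSP82, the stress-induced copy of Hsp90, had 57, 47.4 and 43.3 CPM at 12 h and 103, 143 and 126 CPM at 0 h (-1.33 ± 0.3, adjusted p = 0.00185), and it is nearly identical to its constitutive copy, so reads can be split between the pair. CDC37, the cochaperone that brings kinases to Hsp90 (-0.57 ± 0.14, adjusted p = 0.00297), and HSP10, of the mitochondrial folding chamber (-0.66 ± 0.15, adjusted p = 0.00241), also fell. The groups did not overlap for these 4 genes.

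The changes also moved with gene length, which matters for these lists because mitochondrial ribosome and intermembrane space genes are short. Across 5709 genes with an annotated length the Spearman correlation of length with the log2 change was 0.234, as a description, since the points share libraries. By length class the median change of all genes was -0.14 for the 966 genes of up to 600 bases and 0.17 for the 885 genes over 2400 bases. Within the shortest class the 23 mitochondrial ribosome genes had a median of -0.70, and the 16 intermembrane space genes one of -0.66. In the class of 600 to 900 bases the 20 mitochondrial ribosome genes had a median of -0.70 and the 15 proteasome genes one of -0.35, against -0.095 for all genes. With the trend on length taken out, 47 mitochondrial ribosome, 10 intermembrane space and 17 proteasome genes were called lower. In the single libraries the correlation of length with the deviation from the mean of all libraries was 0.51, 0.34 and 0.14 at 12 h and 0.050, -0.0099 and -0.13 at 0 h, so 12 h replicate 1 stood farthest out.

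**Figure D3:**
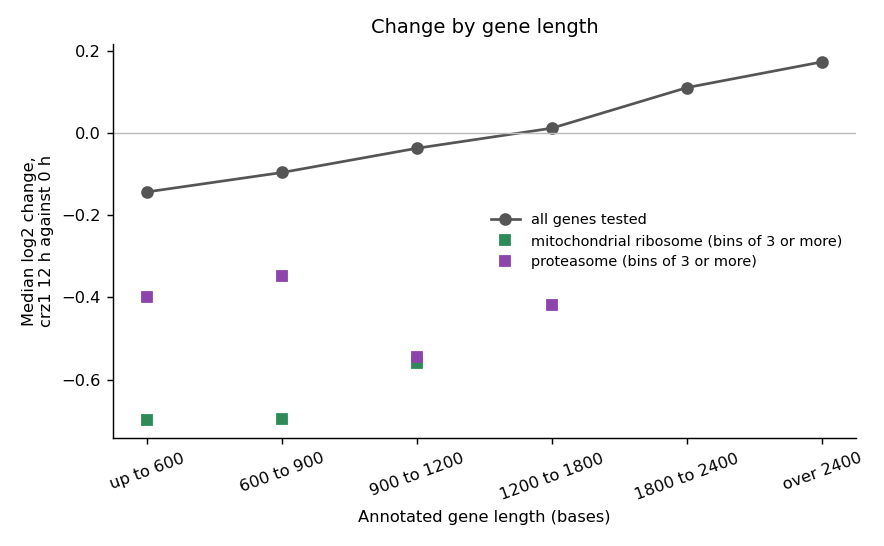
Median log2 change of crz1 at 12 h over 0 h by class of gene length in bases, for all genes tested, mitochondrial ribosome genes and proteasome genes. The line of all genes climbs from -0.14 in the shortest class to 0.17 in the longest, and the mitochondrial ribosome genes lie below it in each class that holds 3 or more of them.

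Genes of ergosterol synthesis rose along most of the pathway. Ergosterol is the main sterol of yeast membranes, its late steps use oxygen and heme iron, and its genes answer to the sterol sensor Upc2. In the early part, from acetyl-CoA to farnesyl diphosphate, 6 of 9 genes were called higher and none lower, and in the late part 14 of 17 were higher and none lower, with a median of 0.87. NCP1, the reductase that feeds electrons to the sterol demethylase, had 1743, 2105 and 2297 CPM at 12 h and 496, 517 and 526 CPM at 0 h (2.0 ± 0.21, adjusted p = 7.30e-07). ERG3, the C-5 desaturase, had 2169.8, 2969 and 4191 CPM at 12 h and 895, 858 and 871 CPM at 0 h (1.83 ± 0.21, adjusted p = 2.49e-06). The treated libraries lay apart from the untreated ones in both genes, with replicate 3 the highest. ERG27 (0.95 ± 0.12, adjusted p = 4.81e-06) and ERG4, for the last step (1.1 ± 0.15, adjusted p = 1.74e-05), rose less. Of the early genes, HMG1 and HMG2, the copies of the rate-limiting reductase, rose (0.7 ± 0.14, adjusted p = 0.000519 for HMG1, and 0.97 ± 0.15, adjusted p = 7.34e-05 for HMG2), as did MVD1 (0.75 ± 0.11, adjusted p = 4.97e-05). HES1, for an oxysterol-binding protein, had 17.9, 22.3 and 29.5 CPM at 12 h and 3.68, 3.61 and 3.13 CPM at 0 h (2.74 ± 0.67, adjusted p = 0.0046) and changed by 2.12 on log2(TPM + 1). UPC2 itself rose (1.07 ± 0.23, adjusted p = 0.00123). The string TCGTATA, part of the element read by Upc2, was in 3 of the 26 sterol promoters, where 4.22% of all promoters hold it.

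Beside the sterol genes, some genes of oxygen shortage, of fatty acids and of sphingolipids were higher, and few of phospholipid synthesis were. Of 16 genes induced when oxygen is scarce 5 were called higher and 1 lower, and 3 were called higher without 12 h library 3 and 3 lower without 0 h library 1 or with replicates as a block. DAN4, a wall mannoprotein of anaerobic cells, had 22.8, 35.9 and 49.5 CPM at 12 h and 6.81, 10.02 and 9.92 CPM at 0 h (2.02 ± 0.33, adjusted p = 0.000115), and changed by 1.43 on log2(TPM + 1). OLE1, the fatty acid desaturase, rose (0.88 ± 0.23, adjusted p = 0.00558), and so did TIR4 (1.17 ± 0.31, adjusted p = 0.0063), whose call was lost without 12 h library 3 (adjusted p = 0.0612). Of 12 fatty acid genes 6 were called higher and none lower. FAS2, the alpha subunit of fatty acid synthase, had 1159, 1191 and 1188 CPM at 12 h and 502, 454 and 406 CPM at 0 h (1.38 ± 0.19, adjusted p = 1.24e-05), with the groups apart. ACC1, for acetyl-CoA carboxylase, the first committed step, rose (0.91 ± 0.17, adjusted p = 0.000304). FAS1, the beta subunit, was called (0.5 ± 0.15, adjusted p = 0.0108) but not on the TPM scale, nor with the length trend taken out (adjusted p = 0.301), nor without 12 h library 3 (0.073) or 0 h library 1 (0.0575). Of 19 sphingolipid genes 8 were called higher and 2 lower, with 3 higher without 12 h library 3 or in a fit of these libraries alone. ISC1, which releases ceramide from complex sphingolipids (1.5 ± 0.17, adjusted p = 1.39e-06), and LCB1, a subunit of the first enzyme of the pathway (1.27 ± 0.14, adjusted p = 1.61e-06), rose. ORM1, an inhibitor of that enzyme, fell to 39.8, 35.7 and 45.8 CPM at 12 h, against 61.3, 70.3 and 64 CPM at 0 h (-0.69 ± 0.15, adjusted p = 0.00124). Heme synthesis had 2 of 8 members higher and 1 lower. Phospholipid synthesis had 1 of 18 higher (5.56%), below the 17.6% of all genes.

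Sulfur metabolism changed at selected steps. Yeast takes up sulfate, reduces it to sulfide and builds methionine, S-adenosylmethionine, cysteine and glutathione from it. Of 10 sulfate uptake and reduction genes 4 were called higher and none lower, which was 2 without 12 h library 2, on the TPM scale and with the length trend taken out, and 1 without 0 h library 2. SUL2, for a sulfate permease, had 60.1, 71.2 and 86.8 CPM at 12 h and 18.6, 23.6 and 25.4 CPM at 0 h (1.69 ± 0.24, adjusted p = 2.05e-05), with no overlap. MET10, a subunit of sulfite reductase (0.8 ± 0.25, adjusted p = 0.0162), MET8 (0.57 ± 0.16, adjusted p = 0.00982) and MET3, the first step of sulfate activation (0.7 ± 0.27, adjusted p = 0.048), were called with less room. MET10 lost its call without 0 h library 2 (adjusted p = 0.0689) and with the length trend taken out (0.0957). MET3 lost it without 12 h library 1 (0.161) or 2 (0.0689) and without 0 h library 2 (0.187) or 3 (0.124). MET8 lost it without 12 h library 2 (0.071) or 0 h library 2 (0.0515). SUL1, MET1, MET5, MET14, MET16 and MET22 were not called, with changes of 0.083 for MET14 to 0.59 for SUL1.

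Downstream, 6 of 18 methionine and cysteine genes were called higher and 2 lower. CYS3, which makes cysteine from cystathionine, had 1202, 1322 and 1149.8 CPM at 12 h and 331, 216 and 245 CPM at 0 h (2.21 ± 0.25, adjusted p = 1.61e-06). SAM1, for S-adenosylmethionine synthetase, had 1006, 1089 and 950.4 CPM at 12 h and 485, 467 and 474 CPM at 0 h (1.09 ± 0.13, adjusted p = 3.20e-06). The treated libraries were all clear of the untreated ones in both genes. MET12, a methylenetetrahydrofolate reductase gene, rose (0.89 ± 0.11, adjusted p = 5.58e-06), as did SAM2 (0.63 ± 0.13, adjusted p = 0.000859), whose call was lost on log2(TPM + 1) (adjusted p = 0.0717). The importers of S-adenosylmethionine, SAM3 (1.04 ± 0.18, adjusted p = 0.000191), and of methionine, MUP1 (0.91 ± 0.22, adjusted p = 0.00285), rose as well. Of 19 glutathione genes 7 were called higher, 1 on the TPM scale, and 3 lower, 1 of them without 12 h library 3. GTT2, a glutathione transferase gene, had 22.8, 24.7 and 24.3 CPM at 12 h and 10.8, 12.4 and 10.5 CPM at 0 h (1.09 ± 0.18, adjusted p = 0.000129). Of 21 redox genes 4 were called higher and 3 lower, shares close to the 17.6% and 14.4% of all genes, with 0 or 1 lower whenever a library was left out. OYE3, an NADPH oxidoreductase gene, had 17.5, 23.7 and 27.3 CPM at 12 h and 3.38, 4.03 and 3.7 CPM at 0 h (2.62 ± 0.25, adjusted p = 1.93e-07). TSA2, an inducible peroxiredoxin gene, had 51.2, 75.7 and 83.1 CPM at 12 h and 14.3, 20.6 and 19.1 CPM at 0 h (1.96 ± 0.23, adjusted p = 3.56e-06). AHP1 (0.89 ± 0.18, adjusted p = 0.000859) and TRR1, for thioredoxin reductase (0.57 ± 0.1, adjusted p = 0.000185), rose less. OYE3, TSA2 and GTT2 showed no overlap of groups.

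The pentose phosphate pathway, the main source of NADPH, had 8 of 11 genes called higher and none lower, with a median of 0.70. ZWF1, for glucose-6-phosphate dehydrogenase at its entry, had 682, 675 and 651 CPM at 12 h and 157, 163 and 149.7 CPM at 0 h (2.1 ± 0.19, adjusted p = 8.16e-08). TKL2, the minor transketolase gene, had 43.7, 41.3 and 32.6 CPM at 12 h and 6.09, 6.33 and 5.22 CPM at 0 h (2.74 ± 0.23, adjusted p = 4.19e-08). TAL1, for transaldolase, had 1361, 1448 and 1488 CPM at 12 h and 649, 814 and 796 CPM at 0 h (0.93 ± 0.13, adjusted p = 1.81e-05). Replicates were close and the groups well apart in all 3. RPE1 (1.07 ± 0.16, adjusted p = 3.06e-05), GND1 (0.66 ± 0.14, adjusted p = 0.00101) and SOL3 (0.48 ± 0.12, adjusted p = 0.00492) rose less, and SOL4 was not called (0.25 ± 0.43, adjusted p = 0.702). NQM1 was called, with every leave-one-out fit and both TPM fits above the threshold (adjusted p = 0.0596 to 0.104).

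Glycerol is the osmolyte that yeast makes when water is drawn out of the cell. Of 12 glycerol genes 7 were called higher, 4 on the TPM scale, and none lower. GPD1, for the dehydrogenase that sets the rate, had 435, 578 and 696 CPM at 12 h and 184, 266 and 293 CPM at 0 h (1.2 ± 0.19, adjusted p = 6.31e-05). GPP2, for the phosphatase after it, had 631, 713 and 675 CPM at 12 h and 266, 232 and 260.2 CPM at 0 h (1.41 ± 0.16, adjusted p = 2.20e-06). GUT1, for glycerol kinase, rose too (1.35 ± 0.16, adjusted p = 3.56e-06), whereas GPD2 was not called (0.28 ± 0.17, adjusted p = 0.233). The treated libraries of GPD1, GPP2 and GUT1 lay above all untreated ones. Trehalose and glycogen genes showed no such rise, with none of 17 called higher and 1 lower, GLG2 (-0.87 ± 0.16, adjusted p = 0.000303). Of 17 general stress genes 4 (23.5%) were called higher and 1 (5.88%) lower, where 17.6% and 14.4% of all genes were. The one that fell was HOR7, with 29.7, 32.6 and 39.7 CPM at 12 h and 156, 141 and 163 CPM at 0 h (-2.17 ± 0.45, adjusted p = 0.00129), while ALD3 (0.95 ± 0.22, adjusted p = 0.00241) and TFS1 (0.76 ± 0.18, adjusted p = 0.00258) rose. The number higher was 2 without 12 h library 3 and on the TPM scale.

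Hexose transport and glycolysis shifted in few genes. HXT1, the low-affinity glucose carrier of cells in high glucose, had 1997, 2447 and 3532 CPM at 12 h and 922, 675 and 721 CPM at 0 h (1.78 ± 0.25, adjusted p = 1.49e-05). RGT2, the sensor for high glucose, rose (1.02 ± 0.18, adjusted p = 0.000183), as did HXT3 (0.79 ± 0.19, adjusted p = 0.00343), and 4 of 15 hexose transport genes were called higher and none lower. PDC1, for pyruvate decarboxylase, had 10823, 12697 and 13965 CPM at 12 h and 5343, 5652 and 6002 CPM at 0 h (1.14 ± 0.15, adjusted p = 7.21e-06). The groups did not overlap for HXT1 or PDC1. In all 6 of 21 glycolysis and fermentation genes were called higher and 2 lower, with 2 higher without 12 h library 3 and none lower without 12 h library 1 or 2 or 0 h library 2 or 3. On the TPM scale the counts were 3 and 5. FUM1 (0.76 ± 0.14, adjusted p = 0.000313) and PYC1 (1.1 ± 0.22, adjusted p = 0.000678) were among the 3 of 17 genes of the citrate cycle and its supply called higher. That share is 17.6%, as over all genes. Of 7 gluconeogenesis genes 1 was called higher, ICL1, and that call was lost without 12 h library 3 (adjusted p = 0.126), without 0 h library 1 (0.0713) and in a fit of these libraries alone (0.111).

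Nitrogen and amino acid genes rose in part. The medium held ammonium, which yeast assimilates through glutamate dehydrogenase and glutamine synthetase, and genes for poorer nitrogen sources are held down while it is plentiful. Of 25 nitrogen genes 11 were called higher and none lower, with a median of 0.47, which was 0.23 on log2(TPM + 1). GDH3, the minor NADP-dependent glutamate dehydrogenase gene, had 44, 52.8 and 52.4 CPM at 12 h and 6.56, 7.67 and 8.92 CPM at 0 h (2.69 ± 0.25, adjusted p = 1.68e-07). GAP1, the general amino acid permease gene, had 20.8, 32 and 44.4 CPM at 12 h and 9.77, 12 and 10.4 CPM at 0 h (1.59 ± 0.21, adjusted p = 9.16e-06). MEP2, for the high-affinity ammonium permease, had 22.1, 28.7 and 34.1 CPM at 12 h and 12.9, 9.52 and 10.3 CPM at 0 h (1.37 ± 0.19, adjusted p = 1.55e-05). DUR3, for a urea transporter, had 11.9, 22.4 and 40.2 CPM at 12 h and 7.15, 6.5 and 6.52 CPM at 0 h (1.88 ± 0.29, adjusted p = 4.55e-05), and changed by 1.27 on log2(TPM + 1). Each of these genes was higher in all treated libraries than in any untreated one, with 12 h replicate 1 the lowest of the treated. Among amino acid synthesis genes, 13 of 33 were called higher and 3 lower, which was 6 higher on the TPM scale. They included ILV6, the regulatory subunit of the first branched-chain step (1.24 ± 0.13, adjusted p = 4.21e-07), BAT2, the cytosolic branched-chain transaminase gene (1.67 ± 0.21, adjusted p = 7.14e-06), ILV3 (0.76 ± 0.14, adjusted p = 0.000399) and LYS20 (0.66 ± 0.11, adjusted p = 0.000139).

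Of 16 arginine genes 5 were called higher and 1 lower, with 3 higher without 0 h library 2 and on the TPM scale, and 3 lower without 12 h library 1. The one called lower was ARG4, for argininosuccinate lyase, the last step, with 48.8, 50.8 and 50.6 CPM at 12 h and 118, 125 and 124 CPM at 0 h (-1.29 ± 0.16, adjusted p = 4.91e-06). CPA1, for a subunit of carbamoyl phosphate synthetase (0.97 ± 0.13, adjusted p = 1.14e-05), ARG8 (0.67 ± 0.094, adjusted p = 1.88e-05) and the regulator ARG80 (1.49 ± 0.19, adjusted p = 6.30e-06) were higher. ARG4 and ARG80 were separated by group in opposite directions.

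Some of the genes usually read as the Crz1 output rose in this strain and others were not called. Of 12 known Crz1 targets 5 (41.7%) were called higher and 1 (8.33%) lower, where 17.6% and 14.4% of all genes were, with a median of 0.59, and 1 was called higher on the TPM scale. GSC2, for a stress-induced glucan synthase subunit, had 47.6, 51.9 and 60.8 CPM at 12 h and 26.6, 28.1 and 29 CPM at 0 h (0.94 ± 0.16, adjusted p = 0.00014). PLB3 (0.58 ± 0.13, adjusted p = 0.00178), CRH1 (0.78 ± 0.19, adjusted p = 0.00314) and PMR1, the Golgi calcium pump gene (0.59 ± 0.13, adjusted p = 0.00196), rose but lost their calls on log2(TPM + 1), at an adjusted p of 0.0765, 0.0638 and 0.0818. PMR1 overlaps the annotated gene HUR1, so reads of that pair may be shared. ENA1, for a sodium pump, is one of a tandem set of near-identical genes and its call was unstable (0.64 ± 0.2, adjusted p = 0.0196, and up to 0.142 in the alternatives). CMK2, a calmodulin-dependent kinase gene, was the one that fell (-0.7 ± 0.18, adjusted p = 0.00605), and its call was lost in a fit of these libraries alone (adjusted p = 0.051) and without 0 h library 2 (0.0534). RCN1, the inhibitor of calcineurin, had 15.3, 17.3 and 15.9 CPM at 12 h and 13, 13.9 and 14.6 CPM at 0 h and was not called (0.22 ± 0.11, adjusted p = 0.118). PMC1, for the vacuolar calcium pump, had 54.7, 51.9 and 63.5 CPM at 12 h and 58.8, 76.2 and 66.2 CPM at 0 h and was not called (-0.24 ± 0.11, adjusted p = 0.109). YPS1 (-0.19 ± 0.14, adjusted p = 0.305), SCW10 (-0.014 ± 0.28, adjusted p = 0.978), PHO89 (1.96 ± 1.17, adjusted p = 0.214) and PUT1 (1.01 ± 0.44, adjusted p = 0.0843) were also not called, though PUT1 was with replicates as a block within strain (adjusted p = 0.00559).

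Calcium and ion transport genes outside that set moved modestly. Of 18 genes of calcium handling 6 were called higher and 3 lower, with 3 higher without 12 h library 3, without 0 h library 1 and on the TPM scale. The number lower was 5 without 0 h library 1 and 1 without 0 h library 2. CCH1, for the plasma membrane calcium channel, had 61.1, 52.4 and 59.2 CPM at 12 h and 37.7, 33.1 and 33.5 CPM at 0 h (0.73 ± 0.13, adjusted p = 0.000173). SPF1, a P-type ATPase gene of the endoplasmic reticulum, rose (0.82 ± 0.15, adjusted p = 0.000395), and CNA1, for a catalytic subunit of calcineurin, had 71, 61 and 64.4 CPM at 12 h and 96.6, 80.8 and 86.5 CPM at 0 h (-0.43 ± 0.11, adjusted p = 0.0055). CCH1 and CNA1 moved in opposite directions with no overlap of libraries. Of 12 genes for monovalent ions 6 were called higher and none lower, 3 of them higher on the TPM scale or with the length trend taken out. TRK2, a potassium importer gene (0.95 ± 0.18, adjusted p = 0.000399), and NHX1, for an endosomal exchanger (0.55 ± 0.13, adjusted p = 0.00256), were among them.

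The cell wall genes changed one by one. Of 16 wall proteins 5 were called higher and 1, CWP1, lower. CWP1 had 76.2, 80.7 and 103 CPM at 12 h and 517, 448 and 485 CPM at 0 h (-2.48 ± 0.32, adjusted p = 8.25e-06). TOS6 had 139, 243 and 241 CPM at 12 h and 74.2, 40.8 and 48.8 CPM at 0 h (1.93 ± 0.29, adjusted p = 4.97e-05). CIS3 (1.08 ± 0.2, adjusted p = 0.000372) and HSP150 (0.79 ± 0.15, adjusted p = 0.000417), members of the PIR family of wall proteins, rose. CWP1 was low in all treated libraries and TOS6 low in all untreated ones. Of 25 glucan and chitin genes 8 were called higher and 2 lower, which was 6 and 5 with the length trend taken out and 4 lower with replicates as a block, among them SCW4 (1.05 ± 0.21, adjusted p = 0.000612), KRE1 (0.98 ± 0.19, adjusted p = 0.000461) and KRE6 (0.74 ± 0.16, adjusted p = 0.00102), all higher. The pathway that watches wall integrity had 4 of 22 genes higher and 4 lower, 18.2% each, near the 17.6% and 14.4% of all genes. Without 12 h library 1 or 0 h library 2 the pathway had 2 lower. Its GTPase gene RHO1 fell to 202, 197 and 217 CPM at 12 h, against 310.3, 310.3 and 301 CPM at 0 h (-0.58 ± 0.11, adjusted p = 0.000282), while the sensor gene WSC2 rose (1.1 ± 0.22, adjusted p = 0.000723) and the phosphatase gene PTP3 rose (1.06 ± 0.22, adjusted p = 0.00103). PRY1, for a secreted sterol-binding protein, had 425, 869.7 and 1407 CPM at 12 h and 69.8, 84.7 and 126 CPM at 0 h (3.27 ± 0.43, adjusted p = 1.41e-05), the treated libraries being uneven but all above the untreated.

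Growth genes differed by list. Of 137 cytosolic ribosome genes 8 were called higher and 1 lower, below the background of 17.6% and 14.4%. On log2(TPM + 1) they were 7 higher and 25 lower, with the length trend taken out 17 were higher, and without 0 h library 2 it was 5. RPP0 (1.0 ± 0.15, adjusted p = 2.72e-05) and RPL3 (0.65 ± 0.092, adjusted p = 1.89e-05) were among those higher. Of 42 ribosome assembly genes 8 (19.0%) were called higher, near the 17.6% of all genes, and 1 lower. The number higher was 17 without 0 h library 1, 5 without 12 h library 1 or 0 h library 2, 4 without 0 h library 3 and 3 on the TPM scale. UTP10 (0.94 ± 0.15, adjusted p = 9.72e-05) and NOP1, for a methyltransferase of ribosomal RNA (0.91 ± 0.15, adjusted p = 0.000123), rose. Of 23 genes of the G1/S transition 6 were called higher and 1 lower, with 3 higher without 0 h library 2 or 3 and on the TPM scale. RNR1, the large subunit of ribonucleotide reductase, had 458, 311 and 215 CPM at 12 h and 147, 58.2 and 53.5 CPM at 0 h (1.92 ± 0.43, adjusted p = 0.00201), and changed by 2.55 without 0 h library 1, the highest untreated library. CLN3, the first G1 cyclin gene, had 357, 397 and 490.3 CPM at 12 h and 174, 167 and 237 CPM at 0 h (1.11 ± 0.23, adjusted p = 0.00106). The groups did not overlap in either gene. Of 17 G2/M genes 6 were higher and 2 lower, MOB1 (0.79 ± 0.13, adjusted p = 7.87e-05) among the higher, with none lower without 0 h library 1, and of 32 actin genes 8 were higher and 4 lower. On the TPM scale 2 genes of each of these lists were higher. ABP1, for an actin-binding protein of endocytic patches, rose (1.26 ± 0.23, adjusted p = 0.000298), and RVS161, which bends membranes there, fell (-0.73 ± 0.11, adjusted p = 5.35e-05).

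Part of the phosphate genes rose, with a large spread between treated libraries. Of 19 members 9 were called higher and none lower, with a median of 1.24. Without 12 h library 3 the median was 0.80 and 7 were called, and 13 were called without 12 h library 1. PHO84, for the high-affinity phosphate importer, had 799, 1699.7 and 2659 CPM at 12 h and 233, 53.9 and 185 CPM at 0 h (3.45 ± 0.77, adjusted p = 0.00242). It overlaps an annotated noncoding gene, and the strand setting of the counts is not given, so reads of the pair cannot be told apart. PHO81, for the inhibitor of the phosphate pathway's kinase (1.24 ± 0.22, adjusted p = 0.000212), VTC4, which makes polyphosphate (1.24 ± 0.25, adjusted p = 0.000854), and PHO90, a low-affinity importer gene (0.75 ± 0.11, adjusted p = 3.00e-05), rose with less spread. Of 15 thiamine genes 7 were called higher, 4 on log2(TPM + 1), and 1 was called lower. Among the higher was THI7, for the thiamine importer, which had 109, 128 and 155 CPM at 12 h and 48, 44.6 and 43.7 CPM at 0 h (1.52 ± 0.17, adjusted p = 1.15e-06). Of 16 zinc genes 2 (12.5%) were called higher and 4 (25%) lower, where 17.6% and 14.4% of all genes were. With replicates as a block within strain 4 were higher, and 2 were lower without 12 h library 1 or 2. ZRT2, for the low-affinity zinc importer, was lower (-0.75 ± 0.19, adjusted p = 0.00499). In the unfolded protein response list 3 of 13 genes were higher and 1 lower, with PDI1, for protein disulfide isomerase, at 1658, 1949 and 1857 CPM at 12 h and 965, 919 and 932 CPM at 0 h (0.96 ± 0.13, adjusted p = 9.78e-06). The vacuolar ATPase had 1 of 17 genes higher and 3 lower (6 on the TPM scale), daughter-cell genes 1 of 10 higher and 1 lower, and drug resistance genes 1 of 12 higher and 1 lower.

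The same interval in crz1 cnb1 shows which of these changes also took place without calcineurin. There 784 genes (12.9%) were called higher at 12 h and 467 (7.67%) lower. The 2 strains have their own 0 h libraries, and the difference between their changes was tested directly. By that test 3 of 6089 genes (0.0493%) differed, 1 (0.0164%) with a difference of crz1 minus crz1 cnb1 above 0 and 2 (0.0328%) with one below 0, and 582 had an unadjusted p below 0.05. The count is not firm. It was 0 without the filter on low counts, 31 with DESeq2, 22 with replicates as a block within strain and 62 with the length trend removed and replicates as a block, and it was 27 without crz1 12 h library 1 and 0 with any other of the 12 libraries left out.

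CWP1 fell to 76.2, 80.7 and 103 CPM at 12 h in crz1, against 517, 448 and 485 CPM at 0 h, and stood at 354, 528 and 621 CPM at 12 h and 533, 510.2 and 567 CPM at 0 h in crz1 cnb1. Its change was -2.48 in crz1 and -0.099 in crz1 cnb1, a difference of -2.38 ± 0.43 (adjusted p = 0.0408). MRPL11, of the mitochondrial ribosome, changed by -0.68 in crz1 and 0.044 in crz1 cnb1, a difference of -0.72 ± 0.13 (adjusted p = 0.0408). It had 29.2, 32.5 and 29.5 CPM at 12 h and 48.6, 47.8 and 49.4 CPM at 0 h in crz1, and 43.9, 38.7 and 44.3 CPM at 12 h and 39.4, 42.3 and 41.4 CPM at 0 h in crz1 cnb1, so only the crz1 libraries were apart. HXT9 changed by 0.88 in crz1 and -1.78 in crz1 cnb1, a difference of 2.66 ± 0.48 (adjusted p = 0.0408), at no more than 3.89 CPM in crz1 and with reads it can share with the near-identical HXT11. Without the filter on low counts each of the 3 had an adjusted p of 0.0539.

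**Figure D4:**
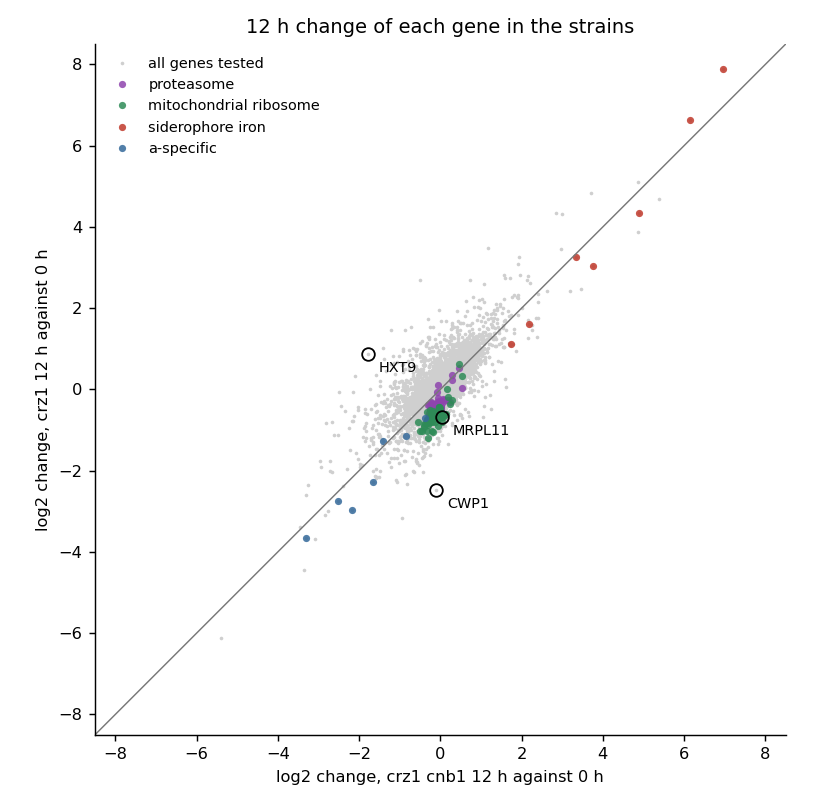
Log2 change at 12 h over 0 h in crz1 (vertical) against the change in crz1 cnb1 (horizontal) for each gene tested, with members of selected lists coloured and CWP1, HXT9 and MRPL11 circled. Siderophore genes lie high on both axes and a-specific genes low on both, while mitochondrial ribosome genes lie below the diagonal, and genes beyond 8.5 on either axis, FIG1 among them, are not drawn.

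The iron and mating changes were present in both strains. In crz1 cnb1 all 7 siderophore genes were again called higher, with a median of 3.75 beside 3.26 in crz1, and 6 of 7 a-specific genes lower. FIT1 changed by 7.88 in crz1 and 6.95 in crz1 cnb1, FUS1 by -4.44 and -3.36, and AGA2 by -3.65 and -3.31, in the same order of strains. None of these differences was called, which does not show that the strains responded alike. For ARN2 the difference was -0.72 ± 0.33 (unadjusted p = 0.0415).

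The changes of the mitochondrial ribosome genes differed between the strains mostly in one direction. Of 54 genes 48 were called lower in crz1 and 6 in crz1 cnb1, where 14.4% and 7.67% of all genes were. The difference lay below 0 for 53 of the 54, and for 3127 of all 6089 genes. It did so at an unadjusted p below 0.05 for 311 of all genes and for 42 of the 54 mitochondrial ribosome genes. The genes share libraries and are no replicates, and 1 of them, MRPL11, was called by the test of the difference. With DESeq2 6 were called, with replicates as a block 3 or 4, and with the length trend removed 8, or 14 with the block as well. Their summed level was 2061, 2073 and 1889 CPM at 12 h and 3144, 3092 and 3101 CPM at 0 h in crz1, and 2711, 2662 and 2665 CPM at 12 h and 2687, 3036 and 3046 CPM at 0 h in crz1 cnb1. RSM28 changed by -1.02 in crz1 and -0.33 in crz1 cnb1 (difference -0.69 ± 0.14, unadjusted p = 8.26e-05), and MRPS17 by -1.19 and -0.29 (difference -0.9 ± 0.2, unadjusted p = 0.000168). The correlation of length with the difference across 5709 genes was -0.055, weaker than with the change in crz1 (0.234) or in crz1 cnb1 (0.313). All 28 chaperone genes also had a difference below 0, 12 at an unadjusted p below 0.05, as did 31 of 35 proteasome genes, 9 of them at that level. HSP82 changed by -1.33 in crz1 and 0.18 in crz1 cnb1 (difference -1.52 ± 0.41, unadjusted p = 0.00158).

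In other lists the difference lay above 0. It did so for all 10 sulfate genes, 5 of them at an unadjusted p below 0.05, and for all 17 late sterol genes, 9 of them at that level. Of all 6089 genes 2962 had a difference above 0, 271 of them at that level. SUL2 changed by 1.69 in crz1 and 0.0069 in crz1 cnb1 (difference 1.69 ± 0.34, unadjusted p = 5.98e-05, adjusted p = 0.0718), with 60.1, 71.2 and 86.8 CPM at 12 h in crz1 and 19, 16.9 and 14 CPM at 12 h in crz1 cnb1. At 0 h it had 18.6, 23.6 and 25.4 CPM in crz1 and 16.1, 15.5 and 18.1 CPM in crz1 cnb1. Its libraries thus did not overlap between the strains at either time, with little room at 0 h. MET3 changed by 0.7 in crz1 and -0.81 in crz1 cnb1 (difference 1.51 ± 0.38, unadjusted p = 0.000682), called in each strain in opposite directions. ERG3 changed by 1.83 and 0.95 (difference 0.88 ± 0.29, unadjusted p = 0.00669). None of these was called after adjustment in the fit of all libraries.

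The later crz1 libraries show whether the 12 h levels held. At 48 h against 12 h, 596 genes (9.79%) were called higher and 291 (4.78%) lower. This comparison uses the same 12 h libraries as the one above, so a 12 h library that is low by chance gives a fall in one and a rise in the other. It also rests on the choice of libraries, since 887 genes were called in all, 2325 without 48 h library 1, 12 without 48 h library 2, 17 without 48 h library 3, 241 without 12 h library 2 and 76 without 12 h library 3. With the length trend taken out 192 were called, and in a fit of only the 6 libraries none were, with 871 genes at an unadjusted p below 0.05. The correlation of length with the change was -0.53 across 5709 genes, and in the single 48 h libraries it was 0.45, -0.56 and -0.54. Its part in the calls beyond the fit without the trend was not tested.

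None of the 7 siderophore genes was called in either direction, which does not show that their levels held, and their summed level at 48 h was 57110.5, 36204 and 37157 CPM. Without 48 h library 1, which had the highest sum, 2 of the 7 were called lower, as were 971 of all genes. FIT1 had 2500.0, 663 and 263 CPM at 48 h and 1898, 1698 and 1442 CPM at 12 h (-0.56 ± 0.59, adjusted p = 0.558). Of the 7 a-specific genes AGA2 was called higher at 48 h (0.64 ± 0.2, adjusted p = 0.04), with 19.8, 34.6 and 42.7 CPM at 48 h against 18.3, 19.7 and 24.4 CPM at 12 h. The libraries of the times overlapped, the 48 h values stayed far below every untreated library, and the call was lost with the length trend taken out. Of 54 mitochondrial ribosome genes 35 were called higher at 48 h than at 12 h, a number that was 3 with the length trend taken out and 1 without 48 h library 2 or 3. RSM19 (1.17 ± 0.2, adjusted p = 0.00438) and COX17 (1.2 ± 0.21, adjusted p = 0.00489) were higher at 48 h. CWP1 had 159, 219.7 and 517 CPM at 48 h and 76.2, 80.7 and 103 CPM at 12 h (1.78 ± 0.31, adjusted p = 0.00489), and changed by 1.09 without 48 h library 3.

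Some sterol, amino acid and nitrogen genes were lower at 48 h than at 12 h, in counts that rest on single libraries. Of 17 late sterol genes 8 were called lower, of 33 amino acid genes 13 and of 25 nitrogen genes 8, and none, 1 and none higher. With the length trend taken out the counts lower were 3, 6 and 4, in that order of lists. Without 48 h library 1 they were 11, 18 and 7, and without 12 h library 1 they were 8, 12 and 10. Without 48 h library 2 they were 1, 2 and 1, and without 48 h library 3 they were 2, 2 and 1. Without 12 h library 2 they were 4, 6 and 6, and without 12 h library 3 they were 1, 3 and 2. LEU1, an iron-sulfur enzyme of leucine synthesis, had 134, 104 and 114 CPM at 48 h and 286, 338 and 375 CPM at 12 h (-1.51 ± 0.17, adjusted p = 5.21e-05). ILV3, another iron-sulfur enzyme of branched-chain synthesis, had 257, 207 and 209.9 CPM at 48 h and 416, 495 and 564 CPM at 12 h (-1.13 ± 0.15, adjusted p = 0.000374). GLN1, for glutamine synthetase, had 813, 703 and 572 CPM at 48 h and 1349, 1412 and 1372 CPM at 12 h (-0.98 ± 0.16, adjusted p = 0.0039). LEU1, ILV3 and GLN1 did not overlap between the times. ACC1 (-0.91 ± 0.17, adjusted p = 0.00643), ERG7 (-0.62 ± 0.1, adjusted p = 0.0039), FAT3 (-1.52 ± 0.22, adjusted p = 0.00129) and ACH1 (-1.32 ± 0.22, adjusted p = 0.00438) were also lower. NQM1 (1.58 ± 0.27, adjusted p = 0.00438), HSP10 (0.86 ± 0.15, adjusted p = 0.00583), GRX7 (0.77 ± 0.13, adjusted p = 0.00489), ATG31 (0.93 ± 0.13, adjusted p = 0.000647) and SNX3 (0.87 ± 0.16, adjusted p = 0.00583) were higher. All these calls were lost in the fit of only the 6 libraries, where LEU1 had an adjusted p of 0.178 and the others one of 0.332.

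**Figure D5:**
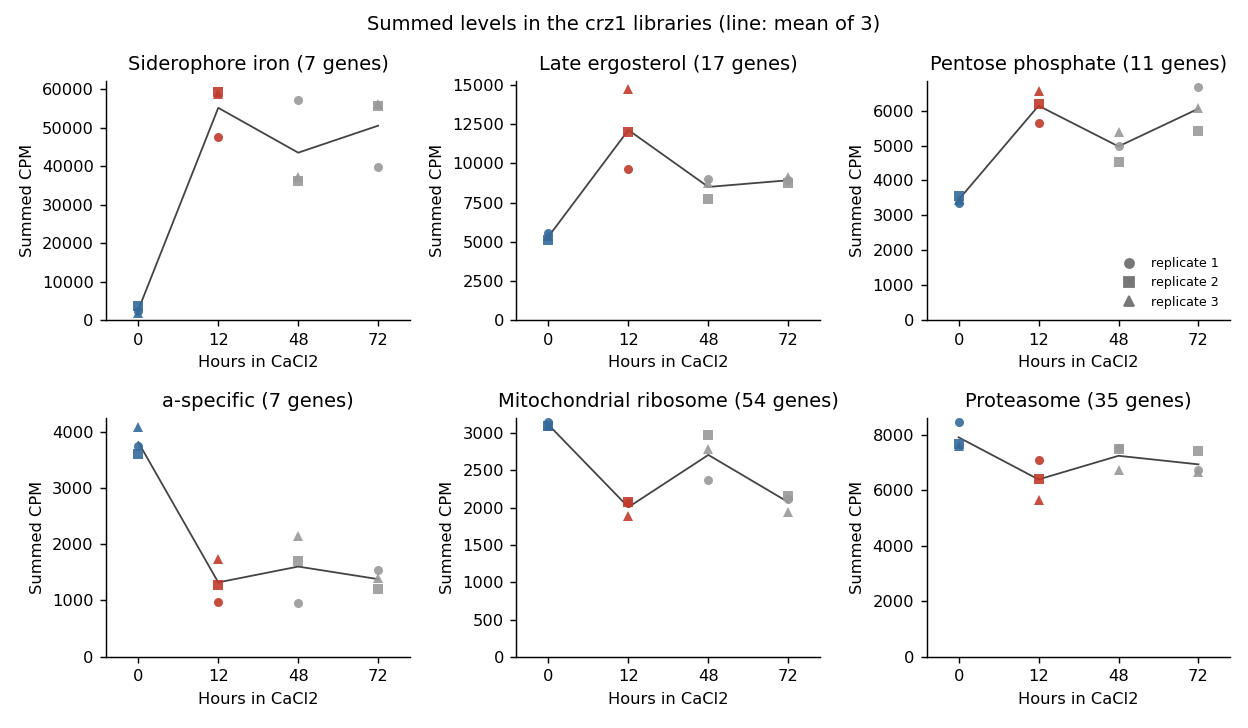
Summed normalised CPM of 6 gene lists in crz1 at 0, 12, 48 and 72 h of CaCl2, on linear axes from 0, with a point per library and a line through the means. The siderophore sum stands at 36204 CPM or more in each treated library of the 3 times and at 3729 CPM or less at 0 h, and the mitochondrial ribosome sum is lower than at 0 h in each treated library.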

How the data were processed

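PolyA RNA from acid-phenol extracts was sequenced, with libraries made by BGI Americas, per the labels' protocols. The authors deposited raw counts per gene, made with featureCounts against build R64 per the submitters' processing notes, and TPM values of the same libraries. Those notes also name DESeq2. The aligner, the strand setting and tool versions were not given in the sources used here. Counts covered 7126 genes and the TPM values 6737 of them.

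The test on the deposited counts was that of edgeR 4.0.16 (R 4.3.3), with TMM scaling, the default filter by group and a robust quasi-likelihood fit to all 24 libraries with 1 coefficient for each of 8 groups. The contrasts were crz1 12 h over 0 h, the difference of that change from crz1 cnb1, and crz1 48 h over 12 h, with Benjamini-Hochberg adjustment over the 6089 genes tested and a threshold of 0.05. Every adjusted p is from this fit unless another is named. Standard errors came from the F statistic. How counting error compares with the spread between libraries was not measured. The fit was also run on simulated counts in which 200 genes had been changed. Those counts were drawn without the length trend or the shared replicate deviations of these libraries, so that run cannot speak to either.

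Other settings tried were the RLE size factors, dropping the filter, replicates as a block, fitting only the libraries compared, the Wald test of DESeq2 1.42.0, limma 3.58.1 on log2(TPM + 1) and log2(TPM + 0.1) computed from the deposited TPM, and each library left out. Fold changes of low genes are understated on those log2 scales. Removing a trend on gene length was added after seeing the data. Lists are described by counts and medians with no set test. The members and the lists were chosen with earlier results of these data known.

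Named genes were the 15 largest rises and 15 largest falls among called genes whose mean reached 10 CPM in a group and whose libraries did not overlap, up to 4 members per list by smallest p, any member of a list of 12 or fewer, and 8 per direction for the other contrasts. FTR1, FET3, STE20, PRM4, SAG1, MRPL4, COX19, CMC4, RPN10, PUP1, RPN4, HXT9 and ARN2 between strains were named after their values were seen, as were some members given beside the rule. Printed promoters hold the motif and belong to the called members of largest fold. Gene names and sequences are from RefSeq (R64), and 6048 gene IDs matched.

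Libraries with the same replicate number had deviations that correlated across genes at 0.68, 0.11 and 0.63 in crz1 at 12 h and 0 h. For 12 h replicate 2 the correlation with 0 h replicate 3 was 0.18, so between these groups only numbers 1 and 3 deviated together. Between crz1 and crz1 cnb1, libraries of the same number correlated at 0.77, 0.56 and 0.61 at 0 h. At 12 h those correlations were 0.50, 0.17 and 0.42. The fit of all 24 libraries holds no pairs, and replicates as a block were an alternative. For crz1 at 48 h and 12 h the correlations were 0.44, 0.053 and 0.53. Python 3.11.15 and matplotlib 3.10.9 drew the figures.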

Additional observations from a re-analysis of the deposited data

Results flagged for a closer look

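Of the 6089 genes, 3 had a 12 h change that differed between crz1 and crz1 cnb1 by the test of the difference itself. CWP1 differed by -2.38, having fallen in crz1 with no call in crz1 cnb1. HXT9 differed by 2.66, with a change above 0 in crz1 and below 0 in crz1 cnb1, at low counts and with reads it may share with HXT11. MRPL11 differed by -0.72, having fallen in crz1 with no call in crz1 cnb1. All 3 stood at an adjusted p of 0.0408, and with a library left out it ranged up to 0.194.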

How the results depend on the processing

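For crz1 at 12 h over 0 h, the number of genes higher was 541 on log2(TPM + 1) and 539 on log2(TPM + 0.1), and the number higher by at least 2-fold was 142 and 184 there. With 1 library left out 837 to 1097 genes were higher and 643 to 794 lower, 1485 to 1891 in all. The replicate block within strain gave 2269 calls and the block over all libraries 2322.

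For the strain difference, 1 gene was higher and 2 lower. Higher were 0 genes with no filter, 3 with the block over all libraries, 10 with the replicate block within strain, 10 with DESeq2, 0 on both TPM scales, 3 with the length trend removed and 21 with that and the block. Lower were 0, 6, 12, 21, 1, 1, 14 and 41 genes in the same settings, and either way 0, 9, 22, 31, 1, 1, 17 and 62. With 1 library left out 0 to 16 were higher and 0 to 11 lower, 0 to 27 in all. Without the filter 601 genes had an unadjusted p below 0.05.

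For 48 h over 12 h, higher were 0 genes in a fit of only the libraries compared, 128 and 127 on the TPM scales, 79 with the length trend removed and 163 with the block as well. Lower were 497 genes with the block over all libraries, 461 with the block within strain, 0 with only the libraries compared, 472 with DESeq2 and 113 with the length trend removed. Either way they were 0 with only the libraries compared, 397 and 395 on the TPM scales, 192 with the trend removed and 409 with the block as well. With 1 library left out 6 to 1354 were higher and 6 to 971 lower, 12 to 2325 in all.

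No value called for a named gene changed sign under any alternative run, while 274 such values lost their call and 65 gained one. For lists, 304 counts of members called moved by more than 1.5 times. The median changed sign under some alternative in 22 of 54 lists, none of them a list whose median is printed above. For iron-using enzymes it was 0.084 without 12 h library 1, in place of -0.20. Without 12 h library 3 it was -0.043 in place of 0.25 for general stress genes and -0.11 in place of 0.33 for hexose transport. These depths limit genes under about 1 CPM, and 3 libraries per group limit the rest.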
